A study of Homo sapiens with 6 samples.

Results

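The MYC-MAX-MXD network was followed here through 10 of its transcription factor genes, MYC, MYCL, MYCN, MAX, MXD1, MXD3, MXD4, MXI1, MNT and MLX. They were chosen by name, as the rows of the count table that carry these symbols, and all 10 of 10 were found among the 26334 genes listed. Upon WDR5 silencing 6 of them rose, MXD4, MYCN, MXI1, MYC, MXD1 and MAX, and 2 fell, MXD3 and MLX. The response was broad, since 26.6% of all genes tested rose and 29.9% fell. The rises of MXD1 and MAX missed the threshold in 5 and 4 of 12 alternative analyses. MXD4 had the widest change of the 10, a 3.13-fold rise, and MYC, by far the most abundant member, rose 1.31-fold.

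RNA was measured in MCF10DCIS.com (MCF10DCIS) cells, a basal-like human breast cancer line of the MCF10 series that forms lesions resembling ductal carcinoma in situ in mice. Control cells (shLuc, n = 3 libraries) carried pRSI-U6-shLuc-UbiC-TagRFP-2A-Puro, with a U6-driven hairpin against luciferase, and silenced cells (shWDR5, n = 3) carried the matching shWDR5 vector. Both groups thus carried the TagRFP-2A-Puro cassette, and the labels give selection with puromycin and the same medium for both, DMEM/F12 with horse serum. The study describes its shWDR5 cells as infected with a pool of WDR5 hairpins, the controls carry a single hairpin, and everything below concerns 1 cell line. The time between infection and lysis is not given in the sources used here. Nothing in the labels says that the libraries came from separate cultures, so the p-values measure the spread between these libraries, which may be technical.

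MYC proteins activate transcription as heterodimers with MAX on the E-box, the hexamer CACGTG. MXD proteins, MXI1 and MNT compete for MAX and for the same sites, and recruit SIN3 and histone deacetylases to repress them. MLX heads a parallel arm, in which it pairs with the glucose-sensing factors MLXIP (MondoA) and MLXIPL (ChREBP) and also with MNT and some MXD proteins. WDR5, the common core subunit of the MLL/SET1 histone H3 lysine 4 methyltransferases, binds MYC directly and helps to hold it on chromatin. MYC is known for driving growth and proliferation of breast epithelium, and several MXD genes for being switched on as cells leave the cycle and differentiate.

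E-boxes were looked for in the 250 bases before the annotated starts of the members, since the network acts on this hexamer. RefSeq promoter windows (GRCh38.p14) were at hand for 9 of the 10 members, and MXD4, MNT and MLX held the E-box, 1 match each. It is a palindrome, so that both strands read alike, and a match is a description of the sequence and no evidence of binding. The hexamer stands in 6.34% of all 35116 promoter windows of this length and in 7.73% of the 27305 genes that have a window. Among the 11381 genes with a window that were tested for a change below, the share is 10.7%. These 3 sequences are shown because they hold the E-box in 3 members that differ in their response below, a rise, no call and a fall. They run 5′ to 3′ on the sense strand, which reads as the transcript does, up to the base before the start, with the E-box in capitals.
MXD4, chr4:2262110-2262359, minus strand: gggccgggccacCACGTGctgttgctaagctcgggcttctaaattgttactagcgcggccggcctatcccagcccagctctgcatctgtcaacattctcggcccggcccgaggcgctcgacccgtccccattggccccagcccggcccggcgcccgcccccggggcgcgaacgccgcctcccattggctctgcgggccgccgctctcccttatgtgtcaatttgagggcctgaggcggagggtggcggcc
MNT, chr17:2401061-2401310, minus strand: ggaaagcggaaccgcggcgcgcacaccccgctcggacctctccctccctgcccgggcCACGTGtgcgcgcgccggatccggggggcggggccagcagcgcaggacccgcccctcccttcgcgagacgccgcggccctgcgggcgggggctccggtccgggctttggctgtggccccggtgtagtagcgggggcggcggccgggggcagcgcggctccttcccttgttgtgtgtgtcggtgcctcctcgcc
MLX, chr17:42566850-42567099, plus strand: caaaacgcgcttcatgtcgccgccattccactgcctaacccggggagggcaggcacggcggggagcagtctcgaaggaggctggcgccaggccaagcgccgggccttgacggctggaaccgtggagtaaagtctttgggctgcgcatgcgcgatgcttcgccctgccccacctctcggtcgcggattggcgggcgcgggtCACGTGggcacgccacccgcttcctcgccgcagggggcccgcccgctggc

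The E-box begins 238 bases before the start in MXD4, 193 in MNT and 50 in MLX. All 3 windows are rich in G and C, at 70.4%, 78.0% and 71.2% of bases, and hold 26, 35 and 30 CpG dinucleotides. No CACGTG was found in the windows of MYCL, MYCN, MXD1, MXD3, MAX (2 windows) and MXI1 (3 windows), which says only that these letters are not in these windows.

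Libraries held 38218108 to 57640167 counts assigned to genes. Levels are given as RPKM, reads per kilobase of exon scaled to library size, with library sizes scaled by edgeR's TMM factors, and differences as log2 fold changes of shWDR5 against shLuc with their SE and a Benjamini-Hochberg adjusted p from edgeR's quasi-likelihood test over 16117 genes. A gene was called at an adjusted p below 0.05. WDR5 itself, the targeted gene, stood at 16.5, 15.2 and 16.1 RPKM in the shLuc libraries and at 7.34, 7.65 and 6.52 in the shWDR5 libraries, a log2 fold change of -1.15 ± 0.07 (adjusted p = 1.86e-07). All 5 markers of basal breast epithelium were expressed and their summed level was higher after silencing, 2105 to 2221 RPKM in shLuc against 3594 to 4039 in shWDR5. KRT17 made up most of this sum (1372 and 2624 RPKM on average), KRT5, KRT14 and TP63 were also called higher, and ITGA6 was not called (log2 fold change 0.05). The 5 luminal and general epithelial markers summed to 2006 to 2123 RPKM in shLuc and 1859 to 2003 in shWDR5, with CDH1 (-1.03) and EPCAM (-0.33) called lower, KRT19 (1.83) called higher and KRT8 and KRT18 not called. The part of these shifts in the results below was not tested. The marker genes of leukocytes, endothelium and fibroblasts summed to at most 7.03 RPKM per list in any library, with CD3E at 0 throughout. In bulk RNA, fewer cells of a type and less RNA per cell cannot be told apart.

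The response to silencing was broad, and the members must be read against it. Of all genes tested, 26.6% were called higher, 29.9% lower and 56.5% in either direction, and the median log2 fold change was -0.01. Among the 10 members 6 were called higher, 2 lower and 2 in neither direction, with a median of 0.19. The same 6 and 2 genes were those whose ranges over the libraries were apart in the 2 groups, which held for 29.9% of all genes upwards and 32.4% downwards. Under the stricter criteria of the study, a log2 fold change of at least 0.6 in size and over 0.5 RPKM besides the adjusted p, 4 members passed (MXD4, MYCN, MXI1 and MXD3) beside 18.3% of all genes. Without the first shLuc library this number was 2, as MXI1 and MXD3 then lay just inside 0.6.

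**Figure D1:**
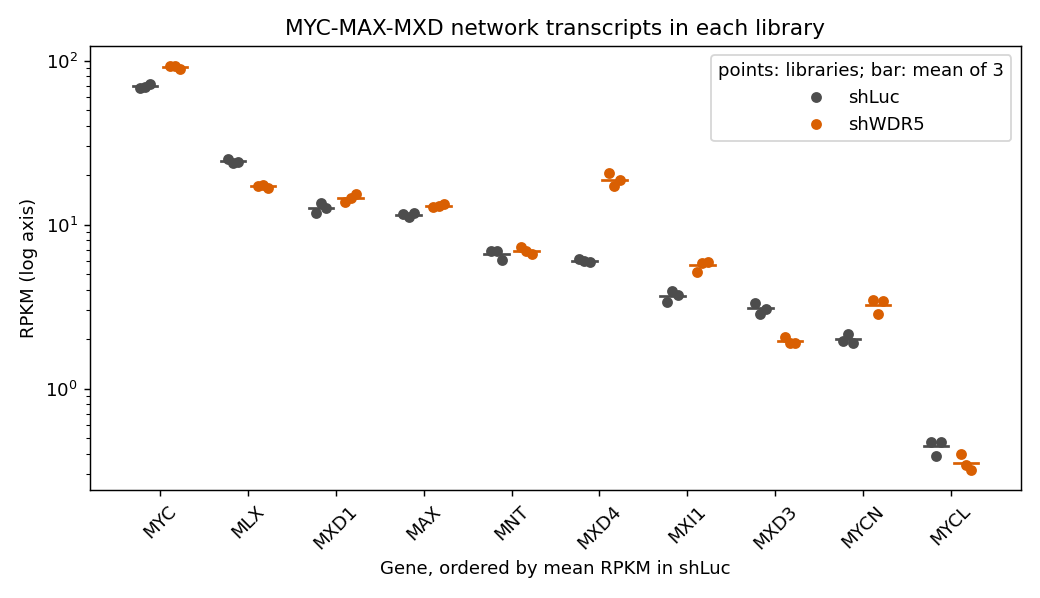
RPKM of each member on a log axis, with 3 shLuc (grey) and 3 shWDR5 (orange) libraries as points and group means as bars. MYC lies above all others at 67.8 to 92.5, MXD4 moves from about 6 to 17.2 to 20.6, and the points of MNT and MYCL overlap between the groups.

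The MYC family supplies the activators. MYC, the member with most transcripts, was measured over 3 exon blocks of 2366 bases in all. Its level was 67.8, 69.3 and 71.9 RPKM in shLuc and 92.5, 92.4 and 88.8 in shWDR5. Every silenced library lay above every control. The log2 fold change was 0.39 ± 0.05 (95% interval 0.27 to 0.50, edgeR adjusted p = 5.81e-05), which 40.7% of all genes exceeded in size. In shLuc MYC was more abundant than 94.6% of the genes tested.

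MYCN, the paralog best known from neuroblastoma (chr2:16080560-16087129, hg19, plus strand), was present at a low level. It read 1.95, 2.16 and 1.88 RPKM in shLuc and 3.47, 2.83 and 3.41 in shWDR5, so the groups were apart here too. The change was 0.69 ± 0.10 on the log2 scale (95% interval 0.47 to 0.92, edgeR adjusted p = 0.000116), from 231 to 293 counts per control library to 470 to 489 per silenced library. The antisense gene MYCNOS shares 80 exon bases with MYCN and held only 7 to 27 counts per library. These libraries were made with a kit whose description mentions no strand marking, so reads of the pair may not have been told apart there.

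MYCL (chr1:40361096-40367687, hg19, minus strand), the third paralog, was the scarcest member. It was at 0.474, 0.391 and 0.471 RPKM in shLuc and 0.397, 0.341 and 0.321 in shWDR5, and the groups overlapped. With 72 to 116 counts per library it had the fewest of the 10 members, and its log2 fold change of -0.34 ± 0.14 (95% interval -0.65 to -0.04) missed the threshold (edgeR adjusted p = 0.0544). It passed in 5 of 12 alternative analyses, for example at 0.0488 with the replicate number as a block. MYC made up 96.6% ± 0.2 (SD, n = 3) of the RPKM of the 3 paralogs in shLuc and 96.2% ± 0.4 in shWDR5, with overlapping ranges.

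MAX, the partner that MYC, MXD proteins and MNT share (chr14:65472819-65569413, hg19, minus strand), changed little. Its level was 11.5, 11.2 and 11.8 RPKM in shLuc and 12.7, 13.0 and 13.3 in shWDR5, with the groups apart. Its replicates were tight, with coefficients of variation of 2.73% and 2.27%. The rise of 0.18 ± 0.06 on the log2 scale (95% interval 0.05 to 0.31) was called at an edgeR adjusted p of 0.0239. The call was lost in 4 of 12 alternatives, with an adjusted p of 0.107 when only library totals were used for scaling and of 0.109, 0.0697 and 0.0849 without shLuc replicate 2, shWDR5 replicate 2 or shWDR5 replicate 3. MYC exceeded MAX by 5.88, 6.21 and 6.10 times in shLuc and by 7.28, 7.12 and 6.68 times in shWDR5, in RPKM.

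The MXD genes, MXI1 and MNT encode the repressors that share MAX. MXD4 (chr4:2249160-2263739, hg19, minus strand), a MAD-family repressor associated with cells that leave the cycle, changed more than any other member. It stood at 6.14, 6.01 and 5.91 RPKM in shLuc and at 20.6, 17.2 and 18.6 in shWDR5. Every silenced library was far above every control. Its log2 fold change was 1.64 ± 0.07 (95% interval 1.48 to 1.81, edgeR adjusted p = 1.89e-08). Only 2.87% of all genes changed more in size, and 58 genes had a smaller p.

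MXI1 (chr10:111967363-112047123, hg19, plus strand), also known as MXD2, rose as well. Its level was 3.37, 3.93 and 3.72 RPKM in shLuc and 5.17, 5.86 and 5.95 in shWDR5, without overlap. The change was 0.63 ± 0.08 on the log2 scale (95% interval 0.44 to 0.81, edgeR adjusted p = 5.79e-05).

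MXD1 (chr2:70142173-70170076, hg19, plus strand), the founding MAD protein and a marker of epithelial and myeloid differentiation, was the most abundant repressor of the controls. It read 11.8, 13.5 and 12.6 RPKM in shLuc and 13.6, 14.6 and 15.3 in shWDR5. The highest control and the lowest silenced library were almost level, at 13.5 and 13.6. Its log2 fold change of 0.20 ± 0.07 (95% interval 0.05 to 0.35, edgeR adjusted p = 0.0239) was the least secure of the calls, since it was lost in 5 of 12 alternatives. These were scaling by library totals (adjusted p = 0.0933) and leaving out shLuc replicate 1 (0.0599), shLuc replicate 3 (0.0705), shWDR5 replicate 2 (0.0725) or shWDR5 replicate 3 (0.103).

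MXD3 (chr5:176732501-176739292, hg19, minus strand) is the family member known to be expressed in dividing cells, and it moved the other way. It was at 3.34, 2.86 and 3.07 RPKM in shLuc and at 2.08, 1.90 and 1.90 in shWDR5. All silenced libraries were below all controls, with a log2 fold change of -0.66 ± 0.09 (95% interval -0.85 to -0.47, edgeR adjusted p = 6.03e-05). Of its exon bases 731 (23.1%) lie in exons of PRELID1 on the opposite strand. PRELID1 had 2804 to 4664 counts per library and a log2 fold change of 0.12 ± 0.06 (edgeR adjusted p = 0.0876).

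MNT (chr17:2287354-2304258, hg19, minus strand) is the repressor found in most cell types, at steady levels through the cell cycle. It read 6.94, 6.85 and 6.11 RPKM in shLuc and 7.31, 6.89 and 6.63 in shWDR5. The groups overlapped and the difference, 0.07 ± 0.07 on the log2 scale, was not called (95% interval -0.09 to 0.22, edgeR adjusted p = 0.466). The interval reaches up to a rise of 0.22, so the data do not show that MNT stayed level.

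MLX (chr17:40719078-40725221, hg19, plus strand), the partner of MLXIP and MLXIPL, fell. Its level was 25.0, 23.7 and 24.1 RPKM in shLuc and 17.2, 17.4 and 16.6 in shWDR5, well apart. The log2 fold change was -0.51 ± 0.06 (95% interval -0.63 to -0.38, edgeR adjusted p = 1.41e-05). In MLX 775 exon bases (30.2%) lie in exons of PSMC3IP on the opposite strand, a gene that also fell (-0.52 ± 0.10, edgeR adjusted p = 0.00112) with 175 to 299 counts per library against 1930 to 3160 for MLX. How reads in the shared bases moved the value of MLX was not tested.

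**Figure D2:**
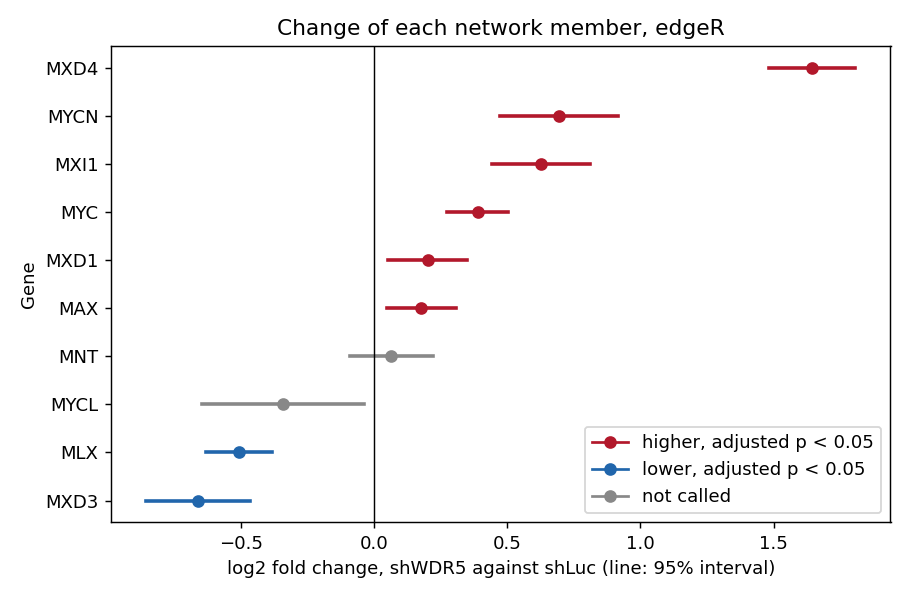
Log2 fold change of each member (point) with its 95% interval from edgeR (line), red for higher, blue for lower and grey for no call. MXD4 at 1.64 stands clear of the others, whose values lie between -0.66 and 0.69, and the interval of MNT crosses 0.

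The order of the members by level changed in places. In shLuc it ran MYC, MLX, MXD1, MAX, MNT, MXD4, MXI1, MXD3, MYCN and MYCL, and only the neighbours MXD1 and MAX, and MNT and MXD4, overlapped in their ranges. In shWDR5 MXD4 had moved from sixth place to second, with 18.8 ± 1.7 RPKM (SD, n = 3) against 17.1 ± 0.4 for MLX, and these 2 overlapped. This place rests on the exon lengths that enter RPKM, since in CPM MXD1, at 76.6 to 86.0, averaged above MXD4, at 65.1 to 77.9. It also rests on the level of MLX, which can be undercounted, since 30.2% of its exon bases lie in exons of PSMC3IP. How this moved the place was not tested. In RPKM all other neighbours were apart, and MYCN and MXD3 had exchanged places.

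The make-up of the repressor pool differed accordingly. MXD1 was the main repressor transcript in shLuc, with 39.4% ± 1.8 (SD, n = 3) of the summed RPKM of MXD1, MXD3, MXD4, MXI1 and MNT, and MXD4 gave 18.8% ± 0.7. In shWDR5 MXD4 led in RPKM with 39.3% ± 2.7 and MXD1 gave 30.3% ± 2.1. MXD4 over MXD1 was 0.522, 0.445 and 0.470 in the controls and 1.51, 1.18 and 1.21 in the silenced libraries. The lead of MXD4 depends on exon length. In CPM MXD1 stayed ahead in shWDR5, with 38.1% against 33.2% for MXD4, and MXD4 over MXD1 was 0.350, 0.299 and 0.316 in the controls and 1.02, 0.795 and 0.816 in the silenced libraries. On both scales the ratio was higher in every silenced library than in any control. In RPKM MXD3 went from 9.66% ± 0.99 to 4.09% ± 0.16, whereas the share of MXI1 overlapped between the groups, at 11.4% ± 0.7 and 11.8% ± 1.1.

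Summed levels of activators and of repressors were both higher in every silenced library. The MYC family summed to 72.1 ± 2.0 RPKM in shLuc and 94.8 ± 2.0 in shWDR5 (SD, n = 3), and the MXD family with MNT to 32.0 ± 1.0 and 47.9 ± 1.2. The ratio of the former to the latter was 2.23, 2.17 and 2.37 in the controls and 1.97, 2.06 and 1.91 in the silenced libraries, lower in each of these. The MYC family held 51.6% ± 0.9 of the RPKM of all 10 members in shLuc and 54.9% ± 0.6 in shWDR5, the repressors 22.9% ± 0.8 and 27.7% ± 0.7, and MLX 17.3% ± 0.6 and 9.88% ± 0.19. These sums were not tested, and they compare transcripts, not proteins. The shares of MLX can be too low, since 30.2% of its exon bases lie in exons of PSMC3IP. They rest on the exon lengths of the annotation, and in CPM, which leaves length out, the ratio was 1.16 in shLuc and 1.06 in shWDR5.

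**Figure D3:**
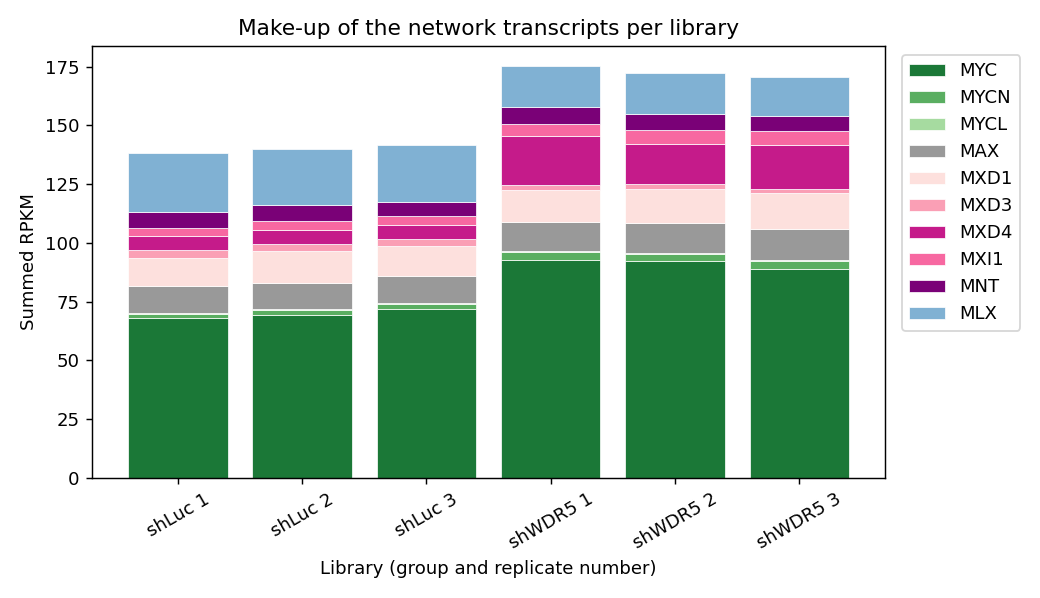
Summed RPKM of the 10 members in each library, stacked by gene, with greens for the MYC family, pinks and purple for the repressors and blue for MLX. The stacks reach 138 to 142 in shLuc and 171 to 175 in shWDR5, and the MXD4 layer widens while the MLX layer narrows.

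Of the other factors that dimerize in the network, MGA, which pairs with MAX and belongs to a variant Polycomb complex, fell from 2.11 ± 0.08 to 1.46 ± 0.06 RPKM (log2 fold change -0.53 ± 0.07, edgeR adjusted p = 4.46e-05). MLXIP rose from 13.4 ± 0.1 to 18.9 ± 1.6 RPKM (0.50 ± 0.06, adjusted p = 4.13e-05), in the direction opposite to its partner MLX. MLXIPL was hardly read, with 7 to 11 counts in shLuc and 3 to 5 in shWDR5, and was not tested. TXNIP and ARRDC4, arrestin genes known as targets of MLXIP-MLX, went opposite ways, TXNIP higher (0.26 ± 0.06, adjusted p = 0.00191) and ARRDC4 lower (-0.31 ± 0.08, adjusted p = 0.00729). Without shLuc replicate 3 ARRDC4 was not called, and the count of these genes called lower was 0.

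Genes for MYC cofactors moved in both directions. Of 16 measured, 4 rose and 8 fell (75% called, beside 56.5% of all genes), with a median of -0.11 on the log2 scale. The acetyltransferases EP300 (0.43 ± 0.06, edgeR adjusted p = 5.43e-05) and CREBBP (0.43 ± 0.06, adjusted p = 5.08e-05) rose. CDK9, the kinase of the elongation factor P-TEFb, also rose (0.54 ± 0.06, adjusted p = 1.47e-05), while its cyclin partner CCNT1 fell (-0.63 ± 0.07, adjusted p = 2.07e-05). ACTL6A, a subunit of TIP60 and BAF complexes, fell by 0.41 and the elongation factor PAF1 fell by 0.36 on the log2 scale. TRRAP, EP400, RUVBL1, RUVBL2 and HCFC1, the others that fell, lay outside the rule for named genes and were named after their values were seen. KAT5, KAT2A, SMARCB1 and ZBTB17 were not called. In KAT5 34.4% of exon bases lie in exons of RNASEH2C.

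Among 14 genes that govern the turnover of MYC protein, 3 rose and 6 fell (64.3% called, beside 56.5% of all genes), with a median of -0.08. The ubiquitin ligases STUB1 (0.95 ± 0.06, edgeR adjusted p = 1.77e-07) and FBXW7 (0.21 ± 0.08, adjusted p = 0.0331) and the deubiquitinase USP36 (0.32 ± 0.06, adjusted p = 0.000603) were the 3 that rose. In STUB1 39.4% of exon bases lie in exons of JMJD8. The ranges of FBXW7 overlapped between the groups, at 6.47 to 7.57 RPKM in shLuc and 7.44 to 8.26 in shWDR5. With library totals, and without shLuc replicate 1 or shLuc replicate 2, only 2 of the turnover genes were called higher. The mitotic kinases AURKA (-0.72 ± 0.06, adjusted p = 1.92e-06) and PLK1 (-0.41 ± 0.06, adjusted p = 0.000120), which protect MYC proteins from FBXW7, fell with the deubiquitinase USP37 (-0.60 ± 0.09, adjusted p = 0.000125).

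Of 13 corepressor genes whose products MXD proteins recruit, 3 were called higher and 3 lower (46.2%, beside 56.5% of all genes), with a median of -0.05. The deacetylase HDAC1 (0.27 ± 0.07, edgeR adjusted p = 0.00448) and SAP18 (0.19 ± 0.06, adjusted p = 0.0217) were among those that rose. The histone chaperone RBBP7 (-0.50 ± 0.05, adjusted p = 6.71e-06), the SIN3 subunit SUDS3 (-0.42 ± 0.06, adjusted p = 5.87e-05) and NCOR1 (-0.19 ± 0.05, adjusted p = 0.00949) fell. SIN3A and SIN3B, the scaffolds that MXD proteins bind, were not called, with log2 fold changes of -0.05 ± 0.05 and 0.15 ± 0.06 (adjusted p = 0.475 and 0.0689).

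Textbook targets of MYC gave a mixed picture. Of 26 genes that MYC is known to activate 25 were tested, 11 rose and 4 fell (60%, close to the 56.5% of all genes), with a median of 0.16 on the log2 scale. TFRC, the transferrin receptor (0.60 ± 0.06, edgeR adjusted p = 9.42e-06), SRM, spermidine synthase (0.57 ± 0.07, adjusted p = 1.55e-05), and NOP56, a box C/D snoRNP protein (0.48 ± 0.05, adjusted p = 1.59e-05), rose. The pseudouridine synthase DKC1 (-0.67 ± 0.06, adjusted p = 3.69e-06), the rRNA methyltransferase FBL (-0.19 ± 0.05, adjusted p = 0.0116) and the chaperonin HSPD1 (-0.17 ± 0.06, adjusted p = 0.0245) fell. Without shLuc replicate 3 only 1 of these genes was called lower, and without shWDR5 replicate 1 only 2. The E-box stood in the 250 bases before the start of 9 of the 22 genes of this list with a promoter window (40.9%), of which 4 rose and 2 fell. Among all genes tested, 11381 of 16117 had a window and 10.7% of these held the hexamer. EIF4A1, a translation factor that cells depend on, was listed at 0 in all libraries, and all 1877 of its exon bases lie in exons of the readthrough gene SENP3-EIF4A1, so its 0 is no sign of absence.

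Of 11 genes that MYC is known to repress 10 were tested, 2 rose and 4 fell (60%, close to the 56.5% of all genes), with a median of -0.20. The growth arrest genes GADD45A (0.79 ± 0.06, edgeR adjusted p = 5.37e-07) and CDKN1A, the inhibitor p21 (0.73 ± 0.05, adjusted p = 5.70e-07), rose. CDKN1C (-2.24 ± 0.29, adjusted p = 4.18e-05), NDRG2 (-1.27 ± 0.10, adjusted p = 8.04e-07) and the differentiation factor CEBPA (-1.15 ± 0.10, adjusted p = 1.99e-06) fell from low levels of 0.421, 3.46 and 2.75 RPKM in shLuc. GAS1, named after its value was seen, was the other that fell. CDKN2B had no count in any library, where a count of 0 allows up to 3 counts, or 0.0520 to 0.0785 CPM (counting error only).

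**Figure D4:**
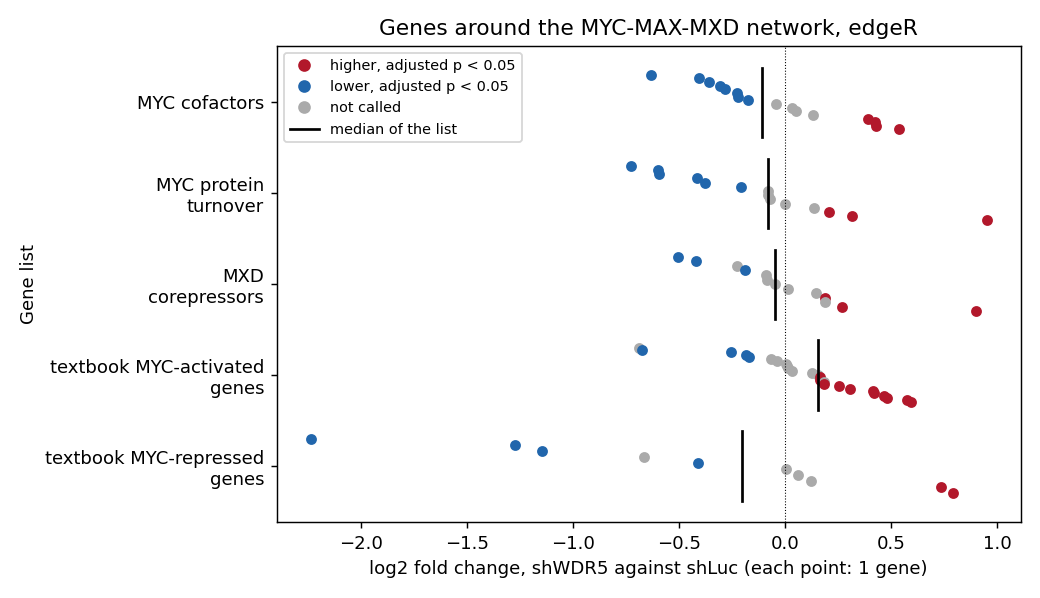
Log2 fold change of every tested gene of 5 lists around the network, 1 point a gene, red for higher, blue for lower and grey for no call, with the median of each list as a black bar. Each list holds red points right of 0 and blue points left of it, and the medians run from -0.20 in the MYC-repressed genes to 0.16 in the MYC-activated genes.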

How the data were processed

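The deposited table holds raw counts per gene for 6 poly-A RNA libraries. According to the submitters' processing notes, the authors used TopHat2 2.1.0, featureCounts and edgeR 3.2.2, with hg19 as the build. How reads in exons of more than 1 gene were handled is not given in the sources used here, and such genes can be undercounted. A second deposited table holds only the authors' own fold changes and p-values and was not used.

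Groups and replicate numbers came from the sample titles. Genes passing filterByExpr were fitted with edgeR 4.0.16 (R 4.3.3) by glmQLFit and glmQLFTest, robust, with TMM factors and group as the only term, and p-values were Benjamini-Hochberg adjusted over all genes tested. The fit was tested on simulated data, where in a single draw the share of false calls exceeded the nominal threshold. RPKM was computed from the counts, the deposited exon lengths and the TMM-scaled library sizes. SEs are the log2 fold change over the root of F. Alternatives changed the scaling, the test (DESeq2 1.42.0, edgeR's exact test), the filter, the threshold, the block and the libraries kept. No replicates were alike within sampling noise (chi-square over its degrees of freedom 5.81 to 14.4).

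Named were all members, WDR5, MGA, MLXIP, MLXIPL, list genes at 0 in every library, and from each other list up to 3 called genes per direction with the smallest adjusted p, of which 1 is not reported here. The members and lists were chosen with earlier results of these data known.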

Additional observations from a re-analysis of the deposited data

How the results depend on the processing

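Across 12 alternatives, MXD4, MYCN, MXI1, MYC, MXD3 and MLX kept their direction and their call and MNT was never called, at 0.01 to 0.11 on the log2 scale, while MAX, MXD1 and MYCL crossed the threshold as described. No member changed sign. Members called higher ranged from 4 to 6 and lower from 2 to 3, and at an adjusted p below 0.01 they numbered 4 and 2. The replicate number as a block gave 6 higher and 3 lower members, and 4909 higher and 5521 lower genes against 4292 and 4811. With the block the edgeR adjusted p was 0.00492 for MAX and 0.00148 for MXD1. Deviations of same-numbered libraries from their group means correlated at 0.372, 0.0358 and 0.116 for replicates 1, 2 and 3. Replicate 1 of either group correlated at -0.312 to -0.0986 with the other numbers. Negative values follow on balance from the positive 0.372, since deviations from a group mean cancel out, so they add no separate information. By contrast, shLuc replicate 2 correlated best with shWDR5 replicate 3 (0.21). The numbers were not taken to pair the libraries, and whether the libraries of replicate 1 shared a batch was not tested. MXD corepressors called higher numbered 5 instead of 3 with DESeq2 size factors and with the block, and those called lower 6 instead of 3 with library totals. With no filter on low counts 2 extended network factors were called lower instead of 1, and MYC-activated genes called lower numbered 1 instead of 4 at an adjusted p below 0.01. Leaving out each library in turn gave 2 to 4 members past the fold and RPKM rule, 1 to 2 extended network factors lower (2 without shLuc replicate 3 or shWDR5 replicate 3), 1 to 4 MYC-activated genes lower and 0 to 1 MLXIP target genes lower. In CPM in place of RPKM, the MYC family held 41.3% (shLuc) and 43.3% (shWDR5) of the members' total and the repressors 35.6% and 40.8%, with ratios of 1.16 and 1.06. The causes of these shifts were not tested, save that lengths enter RPKM and not CPM. In CPM MXD4 over MXD1 averaged 0.322 and 0.876, against 0.479 and 1.30 in RPKM. Low depth limits the values of MYCL, MLXIPL, CDKN1C and TERT, among others.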
